A study of Homo sapiens with 9 samples.

Results

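The genes described here are the NRF2 regulators and antioxidant targets NFE2L2, KEAP1, GCLC, GCLM, TXNRD1, SRXN1, NQO1, HMOX1 and TKT, chosen by name, which makes 9 of the 19775 genes that the platform annotation names on their own. Their members on the array were the 20 probe sets whose annotation names a single one of these genes, where a probe set is a group of short oligonucleotides read as 1 value. A further probe set that names NFE2L2 together with another gene was not used. The probe set with the highest mean over all arrays represented its gene, and 3 genes (KEAP1, HMOX1 and SRXN1) had 1 probe set each.

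NRF2, the product of NFE2L2, is a transcription factor that cells use to raise their defence against oxidants and electrophiles. KEAP1 binds NRF2 and brings it to a ubiquitin ligase built on CUL3, so that NRF2 is degraded in unstressed cells. When cysteines of KEAP1 are modified, or when the autophagy receptor SQSTM1 occupies KEAP1, NRF2 escapes, pairs with a small MAF protein and binds antioxidant response elements near genes for glutathione synthesis, thioredoxin recycling, quinone reduction, heme breakdown and NADPH supply. Control of NRF2 lies largely in the stability of the protein, which an RNA array does not measure.

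RNA came from HEK293 cells, a line of human embryonic kidney origin, transiently transfected with 1 of 3 forms of surfactant protein C (SP-C), a small membrane protein that alveolar type II cells of the lung make for surfactant. The control group (WT) received wild-type SP-C. One mutant group (Ex4) received SP-C that lacks exon 4 and the other (LQ) received SP-C with the L188Q substitution. Each group had 3 arrays, all groups therefore carried SP-C and transfection, both mutants were compared with the same 3 WT arrays, and cells without SP-C were not analysed here. The series' title describes the expressed SP-C as misfolded, and the question put to these genes was whether their RNA differed between mutant and wild-type SP-C. The labels do not say whether the 3 arrays of a group came from separate cultures, so the p-values rest on array-to-array spread that may be no more than technical. These are bulk samples, in which fewer cells of a type and less RNA per cell cannot be told apart.

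The sequences below show where the core of the antioxidant response element stood in the genes' promoters. RefSeq windows of 300 bases on GRCh38.p14, from 250 bases before to 50 after a transcription start, were held for 8 of the 9 genes (11 windows, none for HMOX1), and TGACNNNGC was searched on both strands (GCNNNGTCA on the other). It was present in 4 of these 11 windows, belonging to GCLM, KEAP1 and TXNRD1, and in 13.3% of all 35116 windows. Each line runs 5′ to 3′ on the gene's strand, with the match in capitals. GCLM is shown with longer flanks than the others. Its match ends 26 bases before the start site, and the nearer KEAP1 match ends 23 bases before its own. A further TXNRD1 match, which reaches a start site, is not printed. The sequences are those of chr1:93909431-93909524 (minus strand), chr19:10502784-10502812 and chr19:10502807-10502835 (minus strand), and chr12:104215670-104215698 and chr12:104286920-104286948 (plus strand), in that order.
GCLM: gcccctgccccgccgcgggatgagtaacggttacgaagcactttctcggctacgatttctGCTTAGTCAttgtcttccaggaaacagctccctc
KEAP1, nearer match: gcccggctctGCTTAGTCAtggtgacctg
KEAP1, farther match: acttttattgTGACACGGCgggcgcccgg
TXNRD1, upstream start site: acacgggctaTGACTTCGCtgttgtcacc
TXNRD1, downstream start site: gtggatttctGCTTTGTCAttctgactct
GCLM and KEAP1 shared the letters GCTTAGTCA. A match is a description of these letters, not a bound site, and the windows without one say nothing about sites elsewhere.

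The values are linear array intensities as deposited. The 9 arrays had a common trimmed mean, but their median intensities lay at 506.4 to 524.4 in WT, 316.1 to 434.3 in Ex4 and 303.9 to 371.8 in LQ, so the groups did not overlap WT in this respect. Correlations between arrays ran from 0.842 to 0.959, and the library labelled Ex4 replicate 1 correlated on average 0.906 with its own group and 0.911 with the WT arrays. For GAPDH the 3′ signal over the 5′ signal, a sign of RNA quality, was 1.31 ± 0.11 (SD, n = 3) in WT, 1.12 ± 0.14 in Ex4 and 1.07 ± 0.016 in LQ, whereas for ACTB it was 1.13 ± 0.12, 1.35 ± 0.18 and 1.18 ± 0.041, so the pair did not shift in one direction. Of 9 listed markers of HEK293 cells, 8 had a probe set and 8 lay above the array median on all 9 arrays, with a summed intensity of 141653 to 189440 in WT, 132886 to 142050 in Ex4 and 139434 to 152932 in LQ. Among them PAX2, a kidney transcription factor, fell by 2.04 ± 0.40 on the log2 scale in LQ (limma adjusted p = 0.0254) and read -1.82 ± 0.40 in Ex4 (0.0769), and PAX8 read lower than every WT array in both mutants without passing. The PAX2 probe set carries the suffix for cross-hybridisation and read 407.8 to 535.5 in LQ. KRT8, KRT18, KRT19, NEFL and NEFM overlapped WT in both mutants, while VIM overlapped WT in LQ and lay below it in Ex4. The summed intensity of 6 fibroblast markers ran from 6657.1 to 8076.7 in WT, 4706.8 to 5882.3 in Ex4 and 3215.8 to 4446.5 in LQ, that of 5 blood cell markers from 2348.3 to 2928.2, 1328.6 to 1543.5 and 1264.1 to 1283.2, and that of 7 alveolar type II markers from 4846 to 6529.9, 3721.2 to 4554.6 and 4250.5 to 5063.8. In each of the fibroblast and blood lists 1 marker stood above the array median on all 9 arrays, and 2 of the alveolar list did. The alveolar pair had changes of opposite sign, none of which passed. SFTPB read -0.61 ± 0.31 in Ex4 and -0.26 ± 0.31 in LQ, and LAMP3 read 0.44 ± 0.34 and 0.48 ± 0.34. The fibroblast marker was COL1A1, at 5285.9 to 6163.9 in WT, 3296.2 to 5086.3 in Ex4 and 2564.4 to 3560 in LQ. It supplied most of the fibroblast sum and was called lower in LQ (-0.96 ± 0.20, limma adjusted p = 0.0284). Each other fibroblast marker overlapped WT in both mutants. VIM supplied most of the HEK293 sum. The transfected SFTPC itself read 173160 to 261955 with WT, 97629.7 to 169241 with Ex4 and 108963 to 132058 with LQ. Array medians, the fibroblast and blood sums and SFTPC lay lower in both mutants than on every WT array, the alveolar sums did so in Ex4, and the GAPDH ratio and the HEK293 sum lacked such a separation in at least 1 mutant. The part of these measures in the results was not tested.

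In LQ, NFE2L2 RNA rose 1.72-fold over WT, and it was the single gene of the 9 that passed the test there. In Ex4 no gene of the 9 passed, although NFE2L2 read 1.90-fold higher than in WT and all 3 Ex4 arrays lay above all 3 WT arrays. Among the target genes, none of which passed in either mutant, GCLM, HMOX1 and TKT read higher than WT in both mutants and NQO1 and GCLC read lower, although the sign turned under an alternative for TKT in Ex4 (quantile normalization), for GCLM in LQ and GCLC in Ex4 (mean of the probe sets) and for HMOX1 in Ex4 (without Ex4 replicate 2). GCLC also turned positive in both mutants when arrays were centred on their medians, a scaling that lifts all genes alike and left GCLC 0.18 and 0.20 below the median change in Ex4 and LQ, as before. KEAP1, TXNRD1 and SRXN1 had changes no larger than their standard error in both mutants. The test was limma's moderated test on log2(intensity + 16), fitted on all 9 arrays over 32768 probe sets, with p-values adjusted by Benjamini-Hochberg over all of them and a threshold of 0.05. Changes are given on that log2 scale with their standard error (SE), and the scale understates the change of dim probe sets.

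Counted by representative probe set, 0 of the 9 genes were called in Ex4 by limma's adjusted p, against 0% of all 14018 genes tested, while 2 of the 9 and 3812 of all genes (27.2%) had an unadjusted p under 0.05. In LQ, 1 of the 9 was called higher and 0 lower, against 3.69% of all genes called higher and 3.63% called lower; 3 of the 9 and 4288 of all genes (30.6%) had an unadjusted p under 0.05. The median log2 change of the 9 was 0.10 in Ex4 and 0.04 in LQ, beside -0.08 and -0.09 over all genes tested. In Ex4, 1 gene (NFE2L2) had all its arrays above the WT arrays and 0 had all below, where 9.07% and 14.9% of all genes did. In LQ, 3 genes (NFE2L2, HMOX1 and TKT) stood wholly above WT and 1 (GCLC) wholly below, where 15.7% and 23.2% of all genes did. The non-overlap counts in Ex4 and LQ share the WT arrays and are not independent of each other.

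**Figure D1:**
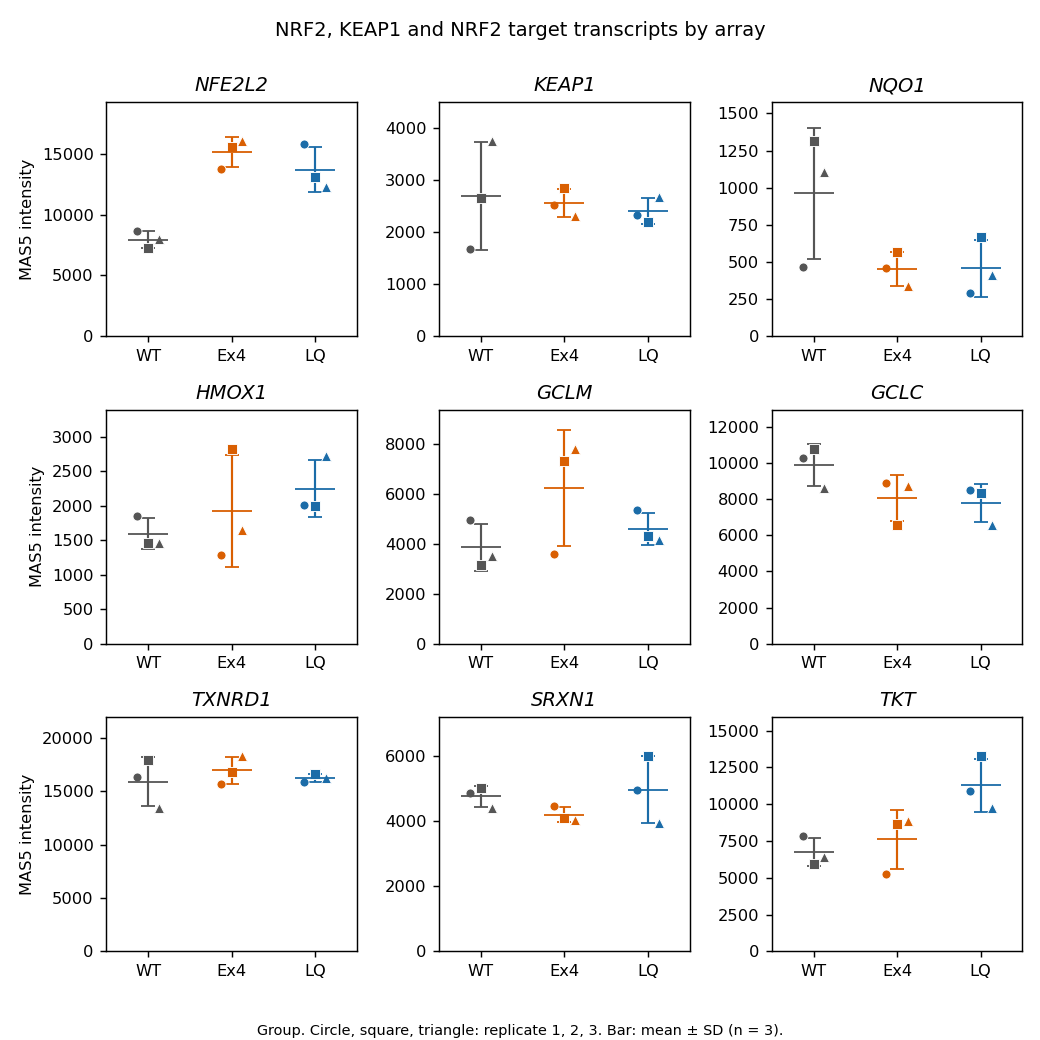
Linear intensity of the representative probe set of each of the 9 genes, 1 panel per gene, with points for the 3 arrays of WT, Ex4 and LQ and bars for the group mean ± SD (n = 3). NFE2L2 is above WT on every mutant array, TKT on every LQ array (9710.8 to 13256.6 against 5959.2 to 7817.3), and NQO1 shows 1 low WT array at 466.9.

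The regulators come first. NFE2L2 read 8620.2, 7247.1 and 7969.5 on the WT arrays, 13720.1, 15559.0 and 16075.1 on the Ex4 arrays and 15814.3, 13057.7 and 12269.8 on the LQ arrays. The lowest mutant array exceeded the highest WT array by more than the spread within any group, and the Ex4 and LQ values overlapped. The group means were 7945.6 ± 687 (SD, n = 3) in WT, 15118 ± 1238 in Ex4 and 13714 ± 1861 in LQ. The LQ log2 change was 0.78 ± 0.15 (SE), with a 95% interval of 0.45 to 1.11, an unadjusted p of 0.000251 and a limma adjusted p of 0.0254. For Ex4 the change was 0.93 ± 0.15 (0.59 to 1.26), with an unadjusted p of 5.42e-05 and a limma adjusted p of 0.0763, above the threshold. The Ex4 change was thus the larger, with the smaller unadjusted p. The adjustment runs over all probe sets, of which 2 were called higher and 2 lower in Ex4, beside 1011 and 1220 in LQ. A difference between the mutants was not shown: LQ minus Ex4 was -0.15 with an interval of -0.48 to 0.19 (limma adjusted p = 1).

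Whether these changes passed depended on the arrays and on the variance model, as did calls over all probe sets. Without the variance trend NFE2L2 in LQ had a limma adjusted p of 0.0619, within 0.00225 to 0.516 over its alternatives. The LQ call held in 4 of the 9 fits that left out 1 array, with adjusted p from 0.00716 to 0.088 and a change between 0.67 and 0.86, and was lost without WT replicate 2, WT replicate 3 or any LQ replicate. In the fits that lost it the unadjusted limma p was 0.000542 to 0.0025. Calls over all probe sets in LQ fell there too, from 1011 higher and 1220 lower to 31 and 2 without WT replicate 2. They were 41 and 5 without WT replicate 3. Without LQ replicates 1, 2 and 3 they were 10 and 4, 10 and 0, and 7 and 1. Conversely the Ex4 change passed without WT replicate 1 (limma adjusted p = 0.00423) or without Ex4 replicate 1 (0.0061), within a range of 0.00423 to 0.234 over its alternatives. NFE2L2 kept its direction in both mutants under all 20 alternatives. A second tested probe set of NFE2L2, 1567013_at, was dimmer than the representative, though above the array median on all 9 arrays, and varied within groups. It read 571.7, 553.9 and 1014.4 in WT, 1202.7, 511.8 and 1341.1 in Ex4, and 732.0, 508.4 and 424.9 in LQ. Its log2 change was 0.45 ± 0.41 in Ex4 (limma adjusted p = 0.515) and -0.33 ± 0.41 in LQ (0.613), so the NFE2L2 probe sets disagreed in LQ, and averaging them gave a change of 0.22 with an adjusted p of 0.516. The remaining NFE2L2 probe set, 1567015_at, lay below the array median on all 9 arrays and was not tested.

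For KEAP1, the inhibitor of NRF2, no change was called. It read 1678.2, 2661.2 and 3758.3 in WT, 2532.0, 2849.3 and 2320.2 in Ex4, and 2329.0, 2202.5 and 2677.3 in LQ. The WT arrays spanned both mutant groups. The ratio of Ex4 to WT was 0.999-fold with a log2 interval of -0.57 to 0.57 (limma adjusted p = 0.997), and the LQ change was -0.10 with an interval of -0.67 to 0.47 (0.832), intervals that leave room for a moderate change in either direction.

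GCLC and GCLM encode the catalytic and modifier subunits of glutamate-cysteine ligase, which makes the first bond of glutathione. GCLC read 10305.2, 10814.5 and 8607.6 in WT, 8884.8, 6572.3 and 8736.7 in Ex4, and 8493.9, 8327.4 and 6576.3 in LQ. The LQ arrays lay below every WT array and the Ex4 arrays overlapped them. Its log2 change was -0.30 ± 0.18 in Ex4 (limma adjusted p = 0.306) and -0.35 ± 0.18 in LQ (0.216), and neither passed. A second GCLC probe set, 202922_at, read 2436.2 to 3447.7 in WT, 3085.9 to 4749.1 in Ex4 and 2970.1 to 3106.1 in LQ, with changes of 0.50 ± 0.21 (0.166) and 0.12 ± 0.21 (0.739) of the opposite sign. The third, 1555330_at, was close to the array median, at 238.8 to 653.4 over all 9 arrays.

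GCLM, the modifier subunit, read 4931.6, 3151.1 and 3503.4 in WT, 3571.8, 7319.0 and 7807.0 in Ex4, and 5335.4, 4305.8 and 4154.2 in LQ. Ex4 replicates 2 and 3 lay above every WT array while Ex4 replicate 1 fell inside the WT range. The Ex4 change was 0.63 ± 0.28 (limma adjusted p = 0.192), and the LQ change was 0.27 ± 0.28 (0.552). Without Ex4 replicate 1 the Ex4 change became 0.99 with an adjusted p of 0.0165, within 0.0165 to 0.492 over its alternatives. In that fit calls over all probe sets in Ex4 rose from 2 higher and 2 lower to 1415 and 3018. Another GCLM probe set, 234986_at, read 2163.0, 1446.3 and 1201.1 in WT, 1911.2, 2823.3 and 3097.2 in Ex4, and 1336.1, 1368.7 and 1129.6 in LQ, so that the mutants stood apart from each other here. The third, 236140_at, read 2763.1 to 4229.7 in WT, 1698.1 to 4787.1 in Ex4 and 1799.2 to 3341.4 in LQ, with negative changes of -0.39 ± 0.35 (0.501) and -0.57 ± 0.35 (0.297). The GCLM probe sets thus disagreed in sign in both mutants.

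TXNRD1 encodes cytosolic thioredoxin reductase, which returns thioredoxin to its reduced form. It read 16375.5, 17923.3 and 13415.9 in WT, 15716.2, 16854.9 and 18295.3 in Ex4, and 15890.0, 16653.2 and 16278.9 in LQ. The groups overlapped, and the changes were 0.10 ± 0.15 in Ex4 (interval -0.22 to 0.42, limma adjusted p = 0.705) and 0.04 ± 0.15 in LQ (-0.28 to 0.36, adjusted p = 0.87). These were the narrowest intervals of the 9 genes. Its second probe set, 1561080_at, lay below the array median on all 9 arrays and was not tested.

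SRXN1 encodes sulfiredoxin, which repairs over-oxidised peroxiredoxins. It read 4858.4, 5008.4 and 4381.0 in WT, 4470.7, 4085.4 and 4023.6 in Ex4, and 4951.3, 5983.6 and 3944.7 in LQ. Ex4 overlapped WT by a single array and LQ spanned it. Its changes were -0.18 ± 0.18 in Ex4 (limma adjusted p = 0.564) and 0.04 ± 0.18 in LQ (0.892).

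NQO1, a quinone reductase that is widely read as a sentinel of NRF2 activity, read lower in the mutants without passing the test. It read 466.9, 1315.1 and 1103.8 in WT, 455.9, 567.1 and 337.9 in Ex4, and 286.8, 665.0 and 412.9 in LQ, above the array median on 2 of 3 arrays in each group. WT replicate 1 lay within the mutant range, and the other two WT arrays lay above every mutant array. The log2 change was -0.96 ± 0.44 in Ex4 (unadjusted p 0.0503, limma adjusted p = 0.202) and -1.01 ± 0.44 in LQ (0.0417 and 0.157). Without WT replicate 1 both passed, at -1.41 (adjusted p = 0.0482) in Ex4 and -1.45 (0.0367) in LQ, where the ranges over the alternatives were 0.0482 to 0.49 and 0.0367 to 0.517. Calls over all probe sets rose in that fit too, from 2 higher and 2 lower to 2253 and 1426 in Ex4. In LQ they rose from 1011 and 1220 to 2698 and 2295. A second probe set, 210519_s_at, gave -0.32 ± 0.35 in both mutants (limma adjusted p = 0.596 and 0.571), and the third, 201467_s_at, lay below the array median on all 9 arrays and was not tested.

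HMOX1 encodes heme oxygenase 1, which opens the heme ring and is induced by many stresses besides those that act through NRF2. It read 1856.3, 1462.3 and 1460.3 in WT, 1282.1, 2827.9 and 1652.5 in Ex4, and 2015.4, 1993.3 and 2723.8 in LQ. Every LQ array lay above every WT array, while Ex4 held both the lowest and the highest of the 9 values. The changes were 0.20 ± 0.28 in Ex4 (limma adjusted p = 0.693) and 0.48 ± 0.28 in LQ (interval -0.13 to 1.10, adjusted p = 0.272), and neither passed. Centring the arrays on their medians brought the LQ change past the threshold (limma adjusted p = 0.0366, within 0.0366 to 0.575 over its alternatives). That scaling lifts all genes alike and called 7934 probe sets higher and 518 lower in LQ. HMOX1 stood 0.63 above the median change in LQ both before and after it.

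TKT encodes transketolase, an enzyme of the non-oxidative pentose phosphate pathway that links sugar phosphates to NADPH supply. It read 7817.3, 5959.2 and 6427.6 in WT, 5267.6, 8662.7 and 8875.1 in Ex4, and 10894.5, 13256.6 and 9710.8 in LQ. Each LQ array lay above all WT and all Ex4 arrays, and Ex4 overlapped WT. Means were 6734.7 ± 966 (SD, n = 3) in WT, 7601.8 ± 2024 in Ex4 and 11287 ± 1805 in LQ. The LQ change was 0.74 ± 0.22 (1.67-fold, interval 0.27 to 1.21), with a limma adjusted p of 0.0584, just above the threshold, and for Ex4 it was 0.14 ± 0.22 (0.709). The LQ change passed when WT replicate 1 (adjusted p = 0.0321) or Ex4 replicate 1 (0.0193) was left out, within 0.00536 to 0.18 over its alternatives. Calls over all probe sets in LQ rose in those fits, from 1011 higher and 1220 lower to 2698 and 2295, and to 1712 and 2694. Another TKT probe set, 208699_x_at, read 6215.9 to 7793.3 in WT, 5199.3 to 7446.0 in Ex4 and 7051.3 to 10098.5 in LQ, with a smaller LQ change of 0.24 ± 0.19 (limma adjusted p = 0.422), and 228205_at gave 0.43 ± 0.36 (0.453). Their Ex4 changes were -0.10 ± 0.19 (limma adjusted p = 0.769) and 0.42 ± 0.36 (0.493), so the TKT probe sets disagreed in sign in Ex4.

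**Figure D2:**
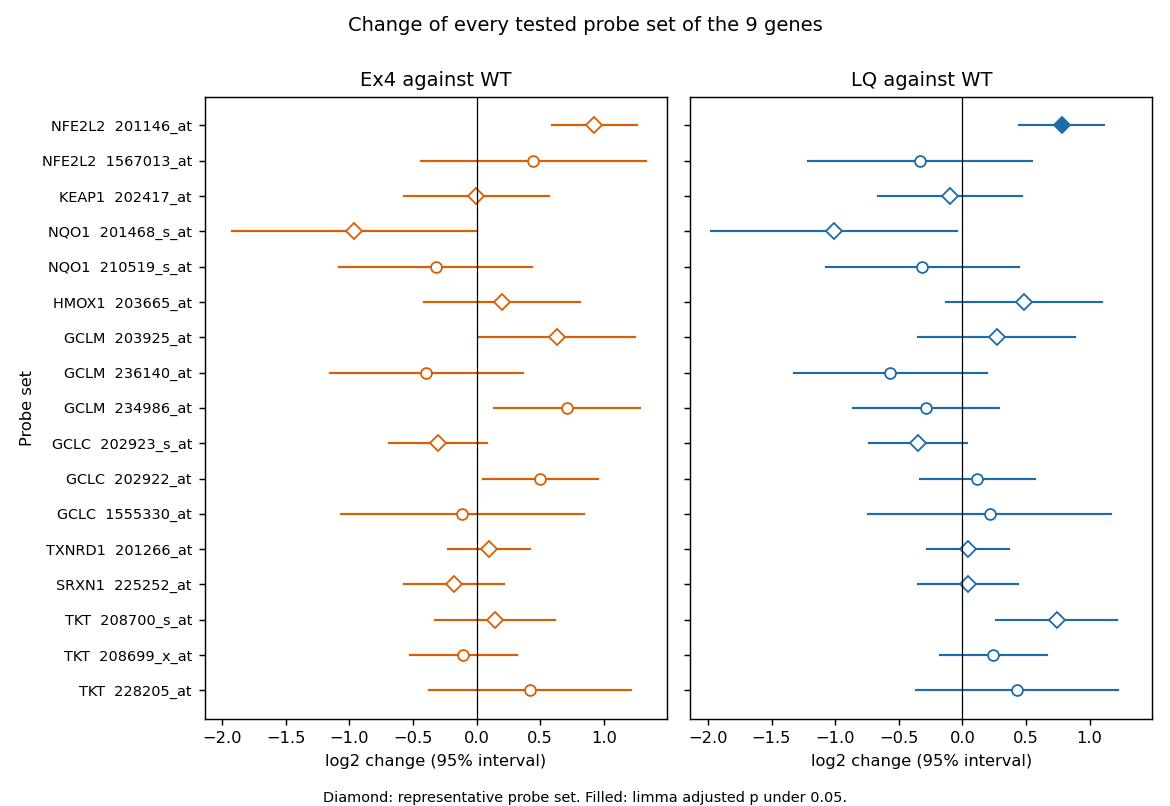
Log2 change against WT of the 17 tested probe sets of the 9 genes, for Ex4 and LQ, with 95% intervals, filled where the limma adjusted p is under 0.05. NFE2L2's representative probe set in LQ is the single filled point at 0.78. Probe sets of GCLM and GCLC fall on both sides of 0 in both mutants, those of NFE2L2 in LQ and those of TKT in Ex4.

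Over all 17 tested probe sets, 9 changes were positive and 8 negative in Ex4, and 10 were positive and 7 negative in LQ. The limma test called 0 in Ex4, with 4 at an unadjusted p under 0.05, a level that 24.9% of all 32768 probe sets reached. In LQ it called 1, beside 6.81% of all probe sets, and 3 had an unadjusted p under 0.05, beside 28.9%. The filter that set which probe sets were tested lay at a mean log2 of 7.89. The members' probe sets just inside it were GCLC 1555330_at at 8.79 and NQO1 210519_s_at at 9.01, and those outside were NQO1 201467_s_at at 6.80, NFE2L2 1567015_at at 6.21 and TXNRD1 1561080_at at 6.09.

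LQ and Ex4 were also compared with each other. The WT arrays do not enter this difference, but through the fit on all 9 arrays they still enter its standard error and p-value. In this contrast 0 of the 9 genes were called by limma's adjusted p, beside 0% of all genes tested, and 1 of the 9 and 588 of all genes (4.19%) had an unadjusted p under 0.05. TKT was the gene with the unadjusted p under 0.05, at 0.60 ± 0.22 (unadjusted p 0.0177, limma adjusted p = 1), and its LQ arrays lay wholly above its Ex4 arrays. That was 1 of the 9 genes higher without overlap, where 5.91% of all genes were, and 0 lower, where 6.47% were. The median LQ minus Ex4 change of the 9 was -0.05, beside -0.01 over all genes.

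The scaling of the arrays shifted every change. Centring each array on its median moved the median change of all tested probe sets from -0.12 to 0.37 in Ex4 and from -0.15 to 0.44 in LQ, and quantile normalization moved it to 0.02 and 0.04. Measured from that median, NFE2L2 stood at 1.05 in Ex4 and 0.93 in LQ as deposited, 0.76 and 0.57 after quantile normalization. NQO1 stood at -0.84 and -0.86 as deposited and -0.64 and -0.62 after quantile normalization, so both genes kept their place on either side of the median. KEAP1 went from 0.12 and 0.05 above the median to -0.02 and -0.13 after quantile normalization. Of the 9 genes, 6 in Ex4 and 7 in LQ lay above the median as deposited, against 3 and 4 after quantile normalization. The split of called probe sets in LQ was 1011 higher and 1220 lower as deposited, 669 and 485 after quantile normalization, and 7934 and 518 after centring on the median. Centring on the median called NFE2L2 and GCLM higher in Ex4 and NFE2L2, HMOX1, TXNRD1, SRXN1 and TKT higher in LQ.

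**Figure D3:**
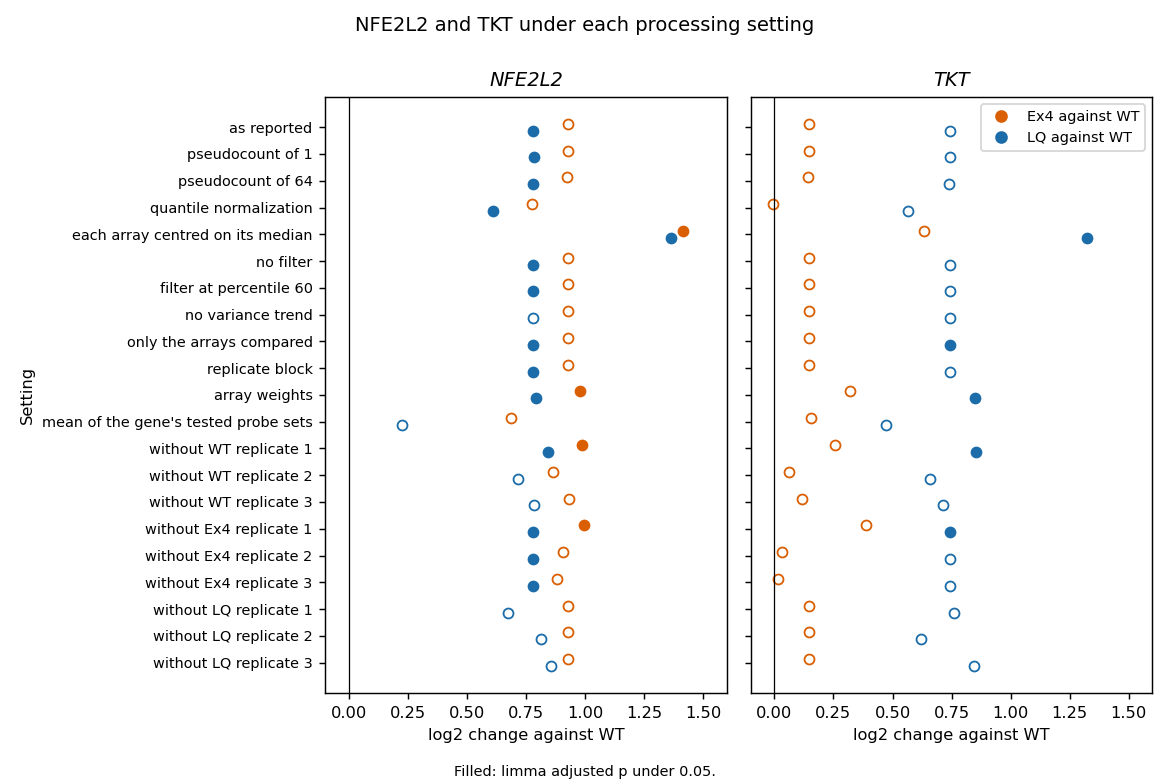
Log2 change of NFE2L2 and TKT against WT as reported and under each of the 20 alternatives, for Ex4 and LQ, filled where the limma adjusted p is under 0.05. NFE2L2 stays above 0 throughout, lowest at 0.22 in LQ for the mean of its probe sets, and TKT in Ex4 touches 0 after quantile normalization.

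Around the 9 genes, a list of 96 further pathway and antioxidant genes was read the same way. Of these, 89 had a probe set naming them alone and 84 were tested. In LQ 3 were called higher and 1 lower by limma's adjusted p, and in Ex4 0 were called, with 20 and 15 of 84 at an unadjusted p under 0.05, beside 30.6% and 27.2% of all genes. The median change was -0.11 in Ex4 and -0.16 in LQ, and 35 of 84 changes were positive in Ex4 and 28 of 84 in LQ. These 3 and 1 of 84 stand beside the 3.69% and 3.63% of all genes called higher and lower in LQ.

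Among the partners and regulators of NRF2, 10 of 11 genes were tested and 2 were called higher in LQ, SQSTM1 and CUL3, with a median change of 0.37 in LQ and 0.18 in Ex4. SQSTM1 read 9762.5, 12213.2 and 12092.6 in WT, 9983.9, 11873.7 and 8475.9 in Ex4, and 20396.7, 18458.5 and 18370.6 in LQ. Each LQ array lay above all arrays of both other groups. Its LQ change was 0.75 ± 0.16 (1.69-fold, limma adjusted p = 0.03) and its Ex4 change was -0.17 (0.533), and LQ minus Ex4 was 0.93 ± 0.16 with an unadjusted p of 1e-04 and an adjusted p of 0.773. The other SQSTM1 probe sets did not share the rise: their LQ changes were 0.13 (limma adjusted p = 0.746), -0.65 (0.176), -0.51 (0.391) and -1.24 (0.137). They were dimmer, with LQ means of 149.3 to 1919 beside 19075 for the representative. The probe set that gave -1.24 lay below the array median on all 9 arrays.

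CUL3, the scaffold of the ligase that KEAP1 serves, read 16754.3, 10997.3 and 12821.1 in WT, 20994.6, 17359.4 and 16452.9 in Ex4, and 22848.1, 20627 and 21344.4 in LQ. The LQ arrays lay above the WT arrays and Ex4 replicate 3 fell within the WT range. Its LQ change was 0.70 ± 0.17 (1.62-fold, limma adjusted p = 0.0396) and its Ex4 change was 0.45 (0.146). A second CUL3 probe set, 201370_s_at, gave 0.91 in LQ (0.0351) and 0.67 in Ex4 (0.104), the same direction.

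In the NADPH supply list, 12 of 13 genes were tested and 1 was called higher in LQ, RPE, an epimerase of the non-oxidative branch of the pentose phosphate pathway in which TKT also acts. RPE read 4740.8, 2824.3 and 3451.8 in WT, 5821.6, 6755 and 7076.9 in Ex4, and 6674.9, 7973.4 and 8846.2 in LQ. No mutant array overlapped WT. The LQ change was 1.11 ± 0.20 (2.16-fold, limma adjusted p = 0.0232) and the Ex4 change was 0.86 (0.0775), with 0.60 (0.047) and 0.71 (0.0941) in LQ from the other RPE probe sets, 225039_at and 221770_at. The median of the list was -0.12 in LQ and -0.02 in Ex4.

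In the glutathione list, 26 of 27 genes were tested and 1 was called lower in LQ, GSTM1, a glutathione transferase. GSTM1 read 717.8, 1214.8 and 1789.2 in WT, 752.6, 400.3 and 232.2 in Ex4, and 340.2, 359.1 and 266.2 in LQ. The LQ arrays lay below all WT arrays, and above the array median on 1 of 3. It fell by 1.81 ± 0.45 in LQ (3.51-fold lower, limma adjusted p = 0.04), while the Ex4 change was -1.45 (0.1). GSTM genes share sequence and these probe sets carry the suffix for cross-hybridisation, so the gene behind the signal is uncertain. The list's median change was -0.20 in both mutants, and 21 of 26 changes were negative in LQ, which became 20 after quantile normalization. Centring on the median lifts all genes alike and left 7 negative, with a list median of 0.38 in LQ beside 0.49 over all genes.

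**Figure D4:**
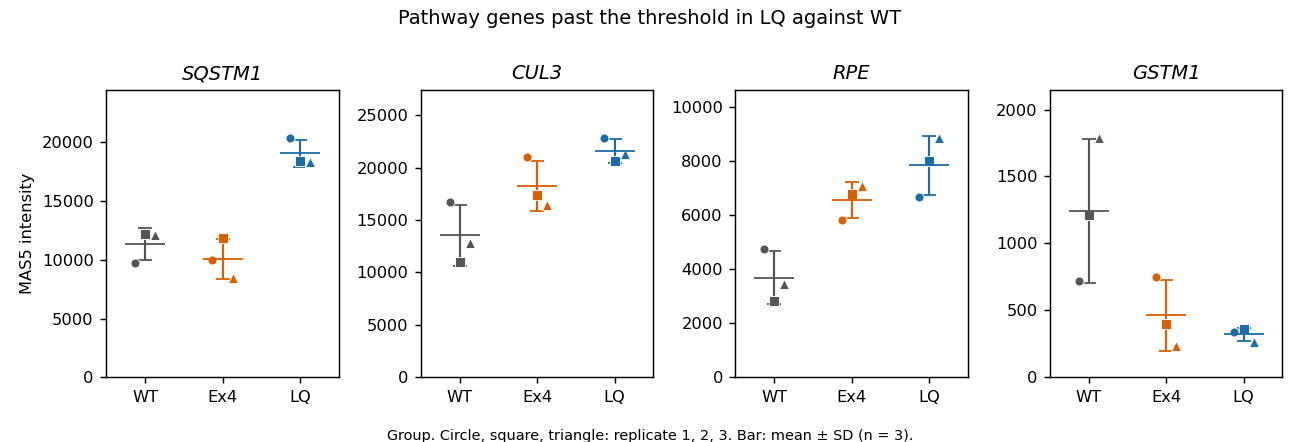
Linear intensity by array of the 4 pathway genes called in LQ (SQSTM1, CUL3, RPE and GSTM1), with the mean of each group of 3 as a bar. SQSTM1 is high in LQ alone at 18370.6 to 20396.7, while RPE lies above WT in both mutants.

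Each of these 4 calls passed in 4 of the 9 fits that left out 1 array, with limma adjusted p of 0.0179 to 0.107 for SQSTM1, 0.00557 to 0.129 for CUL3, 0.00203 to 0.0943 for RPE and 0.0151 to 0.138 for GSTM1. The fits they failed were those that NFE2L2 failed in LQ, in which calls over all probe sets also fell. Without the variance trend none of the 4 passed, at limma adjusted p of 0.0711 for SQSTM1, 0.0884 for CUL3, 0.0534 for RPE and 0.0638 for GSTM1. Quantile normalization ended the calls of SQSTM1 (0.0509), CUL3 (0.113) and GSTM1 (0.0884), a fit with no filter those of CUL3 (0.0514) and GSTM1 (0.0531), and averaging the probe sets turned the sign of SQSTM1 (-0.30, adjusted p = 0.28). GSTM1 also missed the threshold with the replicate block (0.0515).

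No gene was called in the remaining lists, from which the pair with the largest change is given. In the thioredoxin and peroxiredoxin list, 13 of 15 genes were tested, with medians of -0.11 in Ex4 and -0.18 in LQ. PRDX1, an abundant peroxiredoxin, read 30306.0, 48035.6 and 37775.0 in WT and 25066.1 to 28354.1 in LQ, below all WT arrays, with a change of -0.54 ± 0.18 (limma adjusted p = 0.079). TXNRD2, mitochondrial thioredoxin reductase, turned on WT replicate 1, which read 482.7 where the other 8 arrays read 2149.4 to 3746.3; its changes of 0.33 in Ex4 and 0.73 in LQ became -0.59 and -0.19 without that array.

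In the heme and iron list, 8 of 9 genes were tested, 7 of 8 changes were negative in Ex4 and 8 of 8 in LQ, with medians of -0.19 and -0.36. After quantile normalization 7 and 8 were negative, and after centring on the median 2 and 3 were, with list medians of 0.29 and 0.22 beside 0.41 and 0.49 over all genes. HMOX2, the constitutive heme oxygenase, changed by -0.51 ± 0.21 in Ex4 (limma adjusted p = 0.164) and -0.71 ± 0.21 in LQ (0.0594), and SLC48A1, a heme transporter, by -0.71 ± 0.29 (0.158) and -0.93 ± 0.29 (0.0653). HMOX1 itself read higher in LQ, opposite to HMOX2. In the detoxification list, 11 of 17 genes were tested, with medians of 0.07 and -0.13. UGDH, which makes UDP-glucuronate for conjugation, gave 0.90 ± 0.26 in Ex4 (0.0895) and 0.87 ± 0.26 in LQ (0.059), and the dim aldo-keto reductase AKR1B10 gave -0.97 ± 0.53 (0.271) and -1.05 ± 0.53 (0.208).

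The superoxide and peroxide list held 4 genes, all tested, with medians of 0.24 in Ex4 and -0.17 in LQ. SOD3, extracellular superoxide dismutase, changed by -1.51 ± 0.52 in Ex4 (limma adjusted p = 0.12) and -0.81 ± 0.52 in LQ (0.322). SOD3 lay above the array median on 3 WT, 1 Ex4 and 2 LQ arrays, and its probe set carries the suffix for cross-hybridisation. SOD2, the mitochondrial enzyme, changed by 0.37 ± 0.27 in Ex4 (0.424) and -0.40 ± 0.27 in LQ (0.353).

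**Figure D5:**
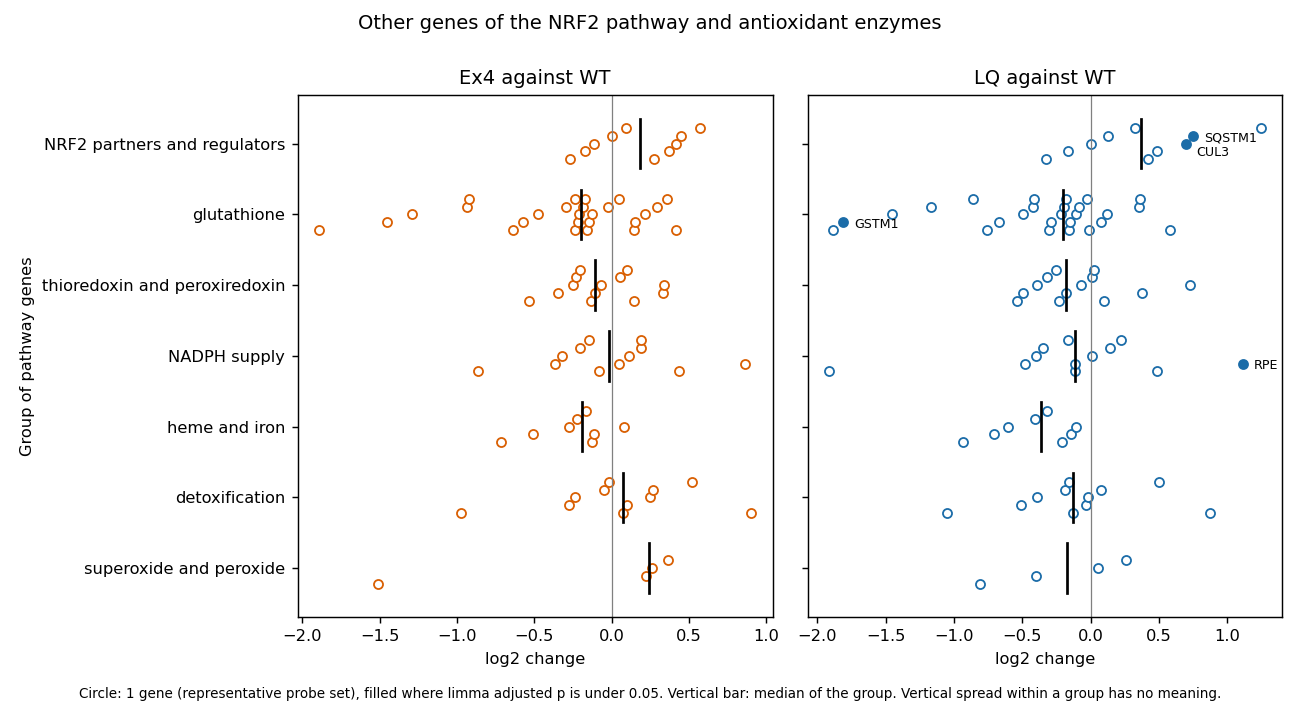
Log2 change against WT of the 84 tested pathway genes by list, with 1 circle per gene, filled and named where the limma adjusted p is under 0.05, and a vertical bar at the list's median. Filled points appear in LQ alone, where SQSTM1, CUL3 and RPE are above 0 and GSTM1 is below, and the heme and iron list lies below 0 in LQ on the deposited scaling, though not after centring on the median.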

How the data were processed

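RNA of 9 samples, 3 per group, was read on Affymetrix arrays. The deposited values are linear intensities of probe sets, made by the authors with MAS5 per the submitters' processing notes (version not given in the sources used here). Precision is limited by the number of arrays. Groups came from the labels. The 62 control probe sets were left out. Of the others, 41091 carried 1 gene symbol in the platform annotation, 1801 several and 11721 none, and genes were named from those with 1. The deposited scaling was kept, 16 was added and log2 taken, probe sets with a mean under percentile 40 were left out, and limma 3.58.1 in R 4.3.3 (lmFit, then eBayes with a variance trend) was fitted by group, after tests on simulated data. Named were the 9 genes, and from each pathway list those with an adjusted p under 0.05 or, where none passed, the 2 with the largest change. The members and lists were chosen with earlier results of these data known. Promoter sequences are RefSeq's (GRCh38.p14). Alternatives covered pseudocounts of 1 and 64, quantile normalization, median centring, a filter at percentile 60 or none, array weights, a fit of only the arrays compared, no variance trend, a replicate block, averaging a gene's probe sets, and leaving out each array.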

Additional observations from a re-analysis of the deposited data

Results flagged for a closer look

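GCLM's probe set 234986_at had all 3 Ex4 arrays above the WT mean and all 3 LQ arrays below it. Neither change against WT passed, at 0.71 ± 0.26 in Ex4 (limma adjusted p = 0.136) and -0.28 ± 0.26 in LQ (0.496), and both groups overlapped WT. The difference itself, LQ minus Ex4, was -0.997 ± 0.26 (unadjusted p 0.00265, limma adjusted p = 1), so it did not pass the test, and GCLM's other probe sets gave -0.36 ± 0.28 and -0.17 ± 0.35.

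SOD2's probe set 1566342_at showed the same arrangement, with 1377.5, 1450.6 and 1546.3 in Ex4, 819.4, 772.4 and 978.1 in LQ and 1154.2, 1583.8 and 782.1 in WT. LQ minus Ex4 was -0.76 ± 0.27 (unadjusted p 0.0162, limma adjusted p = 1), which did not pass either.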

How the results depend on the processing

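The count of the 9 genes called moved as follows. In Ex4 it was 0 as reported, 2 after centring on the median, 2 with array weights and 0 to 2 when 1 array was left out (2 without WT replicate 1 and 2 without Ex4 replicate 1). In LQ it was 1 as reported, 5 after centring, 0 without the variance trend, 2 on only the arrays compared, 2 with array weights, 0 when a gene's probe sets were averaged and 0 to 3 when 1 array was left out (3 without WT replicate 1, 2 without Ex4 replicate 1, 0 without WT replicate 2 or 3 or any LQ replicate). LQ against Ex4 gave 0 throughout. The counts in Ex4 rose where calls over all probe sets did, from 2 higher and 2 lower as reported to 4824 and 282 after centring, 2363 and 2924 with array weights, 2253 and 1426 without WT replicate 1 and 1415 and 3018 without Ex4 replicate 1. In LQ such calls were 1011 and 1220 as reported, 7934 and 518 after centring and 3744 and 4836 with array weights. They were 116 and 326 without the variance trend and 2698 and 2295 without WT replicate 1. Without WT replicate 2 or 3 they fell to 31 and 2 or 41 and 5. Without LQ replicates 1, 2 and 3 they were 10 and 4, 10 and 0, and 7 and 1. With the replicate block the counts were 0, 1 and 0, and NFE2L2 had limma adjusted p of 0.0821 in Ex4 and 0.0303 in LQ. Between groups, deviations from the group mean correlated at -0.083 to 0.191 for same-numbered arrays and -0.229 to 0.164 for other pairs. These ranges overlap and do not settle whether the numbers pair the arrays. The main fit did not pair them. Signs turned as follows. Quantile normalization gave KEAP1 0.0042, TXNRD1 -0.029 and TKT -0.0038 in Ex4, TXNRD1 -0.099 and SRXN1 -0.081 in LQ, and NQO1 0.039 for LQ minus Ex4. Centring gave KEAP1 0.49, GCLC 0.19, SRXN1 0.31, SQSTM1 0.32 and PRDX1 0.24 in Ex4, KEAP1 0.49, GCLC 0.24, PRDX1 0.047 and SOD2 0.19 in LQ, and NQO1 0.047, GCLC 0.049 and TXNRD1 0.037 for LQ minus Ex4. Array weights gave TXNRD2 -0.17 in Ex4, and NQO1 0.12 and GCLC 0.0088 for LQ minus Ex4. The mean of probe sets gave GCLC 0.029 and TXNRD2 -0.55 in Ex4, and GCLM -0.19 and SQSTM1 -0.30 in LQ. Leaving out 1 array gave ranges across 0 for TXNRD2 (-0.59 to 0.87), KEAP1 (-0.30 to 0.27), TXNRD1 (-0.018 to 0.19) and HMOX1 (-0.12 to 0.45) in Ex4, for TXNRD2 (-0.19 to 1.27), KEAP1 (-0.40 to 0.18), TXNRD1 (-0.074 to 0.13) and SRXN1 (-0.10 to 0.20) in LQ, and for NQO1 (-0.35 to 0.23) and GCLC (-0.19 to 0.074) for LQ minus Ex4. The causes were not tested. Of 52 combinations of a gene and a comparison, 31 kept their direction under every alternative that could be run; NQO1, GSTM1, AKR1B10 and SOD3 gave no value at the filter of percentile 60. Signal near the array median limits NQO1, GSTM1, AKR1B10 and SOD3.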
